A study of Drosophila melanogaster with 2 samples.

Results

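The proteasome subunit genes of Drosophila melanogaster were examined for peaks of H3K27ac, the acetylation of lysine 27 on histone H3 that is found at active promoters and enhancers. The genes were chosen by symbol, as protein-coding genes named Prosalpha, Prosbeta, Rpn or Rpt followed by a digit, which gave 48 of the 13922 protein-coding genes on the chromosome arms. Of these, 16 carry a T or R after the subunit number, such as Prosalpha6T or Prosbeta2R1, and are duplicated copies of a subunit gene. The other 32 are called the main genes, 14 of them in the core particle and 18 in the regulatory particle.

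The proteasome is the barrel-shaped protease that degrades proteins tagged with ubiquitin. Its core particle stacks rings of alpha subunits, which gate the entrance, and rings of beta subunits, some of which carry the protease sites. The regulatory particle caps the core: its base holds the Rpt ATPases, which unfold substrates, and its lid removes ubiquitin chains. The main genes are used by nearly all cells, whereas many T- and R-type copies are known in this species from the male germline.

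Each replicate was a pool of 35 to 45 wings of male pupae that had passed 67% of their pupal development. The animals were of line D2, a transgenic line kept at 25 °C, whose insert the labels do not describe. The mark was mapped by CUT&RUN, in which an antibody guides a nuclease to the marked chromatin, after a crosslink of 1 min. There were 2 biological replicates in 1 group with no control group, so no test between conditions was possible and the values below are descriptions of these 2 libraries. In a pool of whole wings, fewer cells with the mark and less mark per cell cannot be told apart.

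The authors deposited 1 list of peaks per replicate on the genome build dm6, 14461 peaks in replicate 1 and 26420 in replicate 2. Solving each peak's fold enrichment and p-value for a whole number of fragments gave a genome-wide background of 13.8 fragments in replicate 1 and 27.1 in replicate 2. The lowest fold enrichment listed at that background was 1.96 in replicate 1 and 1.67 in replicate 2, so that weaker peaks could be listed in replicate 2. A gene without a listed peak may still carry the mark below these limits.

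All 6 wing identity genes examined (nub, vg, ap, rn, sd, bs) had a peak in both replicates, as did 6 of 12 genes known from the testis germline. These testis genes were comr, sa, mia, fzo, vas and bol. The highest peaks of sa, mia, fzo and vas also reached another protein-coding gene in both lists, and that of bol did so in replicate 1. For these genes the peaks could therefore belong to a neighbour. The peaks of comr reached no other protein-coding gene, and their folds ranked at percentile 30.8 of list 1 and 9.44 of list 2. The testis genes topi, nht and bam had a peak in replicate 2 alone, and aly, can and dj had none. Of markers of other cells that a wing holds, a peak in both replicates was found at 2 of 3 tracheal, 1 of 4 neuronal, 1 of 5 muscle and 0 of 5 hemocyte genes. Among all protein-coding genes the shares were 49.9% for both replicates and 70.6% for replicate 2. In replicate 2 all 5 hemocyte genes and all 4 neuronal genes had a peak, as did 3 of 3 tracheal and 3 of 5 muscle genes. Whether such cells contributed to the values below was not tested.

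A gene was counted as having a peak when a listed peak overlapped its annotated span, extended by 500 bp on each side, by at least 1 bp. By this rule 24 of the 48 proteasome genes (50.0%) had a peak in both replicates, against 49.9% of all protein-coding genes. In replicate 1 the count was 25 (52.1%, against 52.6% of all genes), and in replicate 2 it was 30 (62.5%, against 70.6%). As one set, the proteasome genes had a share near that of the genome for both replicates, and a lower one in replicate 2. The kinds of subunit gene differed in their shares. Of the T- and R-type paralogues 4 of 16 (25.0%) had a peak in both replicates, and of the main genes 20 of 32 (62.5%).

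**Figure D1:**
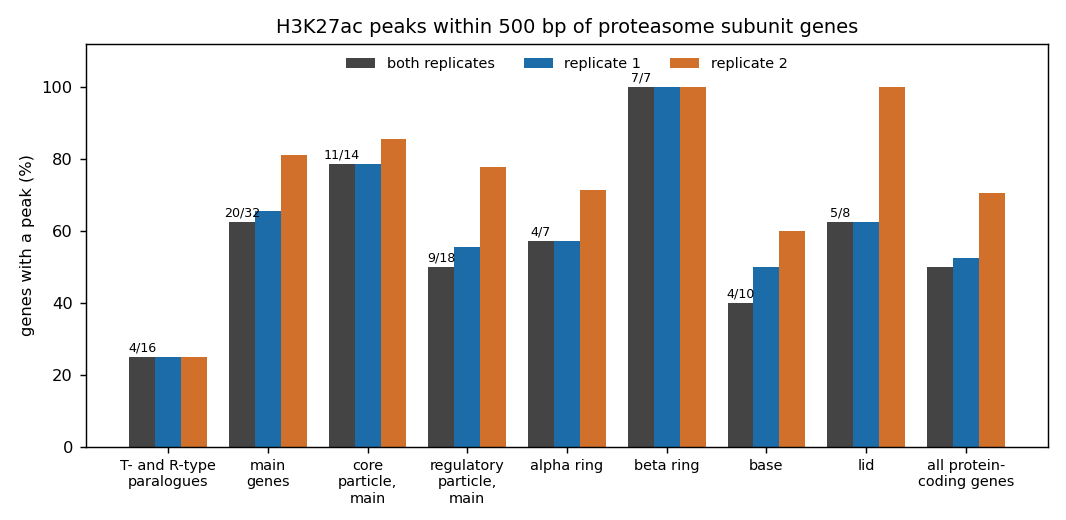
Percentage of genes with an H3K27ac peak within 500 bp in both replicates (dark bars), in replicate 1 (blue) and in replicate 2 (orange), for sets of proteasome subunit genes and for all protein-coding genes. Numbers over the dark bars are genes with a peak in both replicates over genes in the set. Paralogues stand at 25.0% in each list, and the beta ring is the set at 100% in each list.

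Gene length, crowding and the chromosome bear on such counts. Members were 881 to 4500 bp long, and among all genes within that range 46.6% had a peak in both replicates. The paralogues were 881 to 1778 bp long, and 37.4% of all genes in that narrower range had one. All 32 main genes and 10 of the 16 paralogues had another protein-coding gene within 500 bp, as did 80.4% of all genes. Genes with such a neighbour had a peak in both replicates in 54.1% of cases, and genes without one in 32.7%. On the X chromosome, present in a single copy in males, 28.3% of genes had a peak in both replicates, against 53.9% on the autosomes. Of the 6 proteasome genes on X, Prosalpha4 had a peak in both replicates and Rpt3, Rpt4, Rpt6, Prosbeta2R1 and Rpn13R had none in either. How much of the differences between the sets comes from length, neighbours or the X was not tested.

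In the core particle 11 of 14 main genes (78.6%) had a peak in both replicates, and in the regulatory particle 9 of 18 (50.0%), a difference of 28.6 percentage points. Among all protein-coding genes the share was 49.9%, near that of the regulatory particle. In replicate 1 the core and regulatory shares were 78.6% and 55.6%, against 52.6% of all genes. In replicate 2 they were 85.7% and 77.8%, against 70.6%. The difference between the particles was 23.0 points in replicate 1 alone and 7.94 in replicate 2 alone (SD of these values 10.7, n = 2). The core share was the higher in both lists, but the difference of replicate 2 was smaller than this spread. Both lists cover the same genes, so this SD is no error for a difference between sets of genes. Among autosomal main genes, a restriction chosen after seeing the data, the counts were 10 of 13 and 9 of 15, against 53.9% of autosomal genes. The order of the particles turned round when the flank was left out (5 of 14 against 7 of 18), with a -log10 q of at least 5 (5 of 14 against 8 of 18), and with the 7230 top peaks of each list (3 of 14 against 5 of 18). The shares over all genes under these rules were 39.7%, 39.1% and 26.8%.

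The alpha ring, whose subunits gate the core, had a peak in both replicates at 4 of 7 main genes (57.1%, against 49.9% of all genes). The highest there was at Prosalpha2 (3R, 12431321 to 12432556), where the fold enrichment reached 3.93 in replicate 1 and 2.57 in replicate 2. The fold is the authors' value at the summit over the caller's background, and it was read from the peak with the highest -log10 q within the window. The Prosalpha2 peak of replicate 1 was 1770 bp wide, entered the gene and also reached CG5245, and in replicate 2 the same stretch held separate peaks. Its summits rested on 96 fragments over a background of 23.7 in replicate 1 and 121 over 46.5 in replicate 2.

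The other alpha ring genes differed in how far the peaks of the replicates shared a position. Prosalpha6 had 3.83 in replicate 1, from a peak that also reached Npc1a and entered the window with its last bases, 480 bp from the gene, and 1.71 in replicate 2, from a different peak inside the gene. Prosalpha4 had 2.62 and 1.95, again from peaks that did not overlap. Prosalpha7 had low peaks of 2.04 and 1.88 outside its span, which overlapped by 290 bp and also reached CG1671. Prosalpha5 had a peak of 1.73 in replicate 2 and none in replicate 1. Prosalpha1 and Prosalpha3 had no peak in either list. For Prosalpha1 the nearest peaks lay 533 bp away in replicate 1 and 523 bp away in replicate 2, just outside the window.

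The beta ring, which holds the protease sites, had a peak in both replicates at 7 of 7 main genes, against 49.9% of all genes. Prosbeta6 (3L, 16609400 to 16610418), a beta subunit without protease activity, had the highest fold enrichment of the 48 genes in both lists. It was 4.32 in replicate 1 and 3.80 in replicate 2, higher than or equal to 98.7% and 99.3% of the peaks of the list. The summits lay 220 and 227 bp outside the gene, in peaks that also reached CG4098, and rested on 68 fragments over a background of 15.0 and 109 over 27.9. Further peaks lay toward and beyond the other end of Prosbeta6, with up to 2.95 in replicate 1 and 2.85 in replicate 2, and also reached Su(P). Peaks covered 731 bp of the Prosbeta6 window in replicate 1 and 1392 bp in replicate 2.

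The subunits known as the protease sites are Prosbeta1, Prosbeta2 and Prosbeta5. Prosbeta5, the chymotrypsin-like subunit, had 2.97 in replicate 1 and 2.43 in replicate 2 from broad peaks outside its span, which also reached Lsm10, RpS15Ab and CG12343. A second pair of peaks, of 2.23 and 2.27, lay at its other end and also reached dgo. Prosbeta2, the trypsin-like subunit, had 2.59 and 2.24 with summits inside the gene. Prosbeta1, the caspase-like subunit, had the lowest values of the ring, 1.87 and 1.78, at percentiles 4.19 and 11.3 of the lists. The protease subunits thus ran from low to fairly high peaks in both lists.

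The remaining beta genes were Prosbeta3 at 2.10 in replicate 1 and 2.13 in replicate 2, Prosbeta4 at 2.41 and 2.36, and Prosbeta7 at 2.03 and 2.73. Prosbeta7 was the main gene whose peaks, in both replicates, reached no other protein-coding gene, and its summits lay inside the gene (3R, 5357012 to 5358364). Its standing differed between the lists, at percentile 13.3 with 33 fragments in replicate 1 and percentile 90.3 with 97 fragments in replicate 2. For Prosbeta3 the highest peaks of the replicates did not overlap, although 186 bp of its window was covered in both lists.

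**Figure D2:**
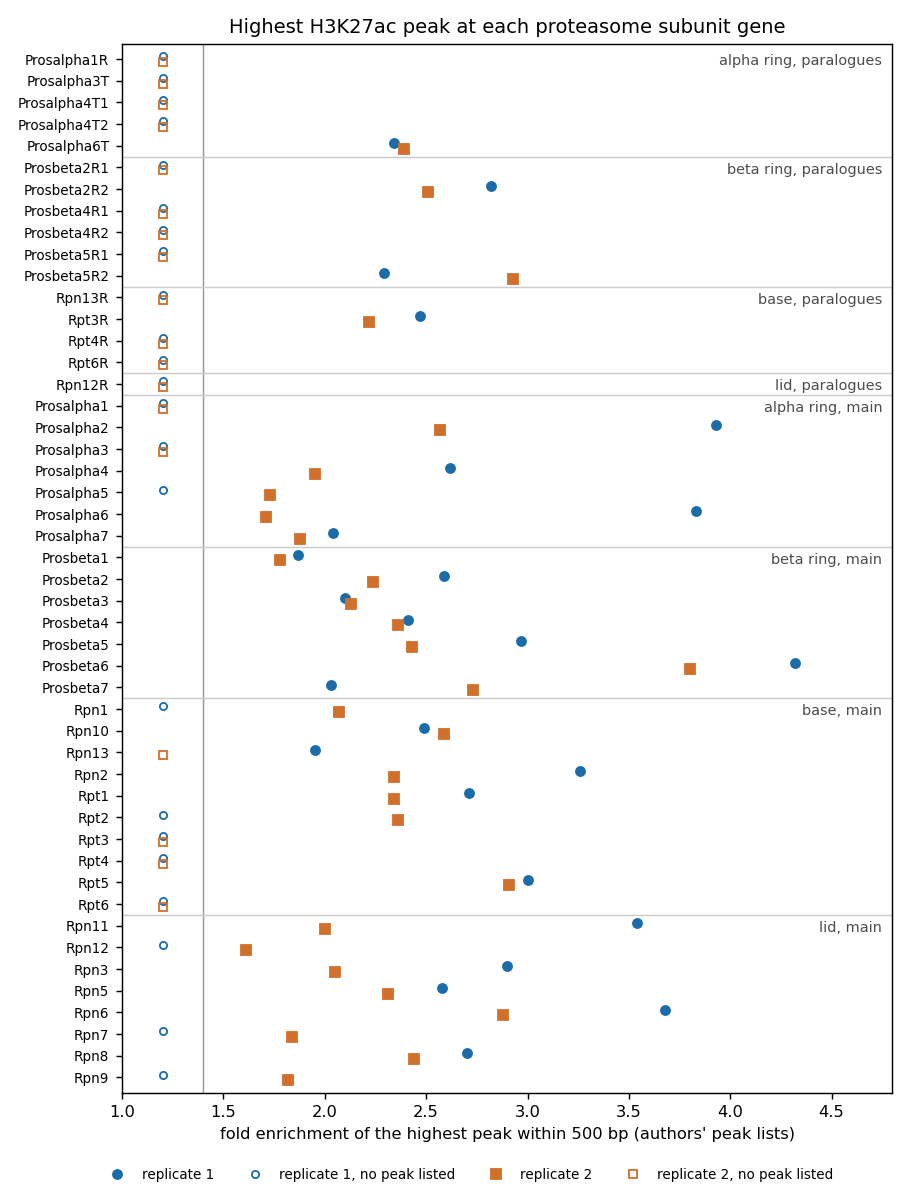
Fold enrichment (horizontal axis, no unit, authors' values) of the peak with the highest -log10 q within 500 bp of each of the 48 proteasome subunit genes, in replicate 1 (blue circles) and replicate 2 (orange squares). Open symbols left of the line mark genes with no listed peak and have no value. Prosbeta6 has the highest value in each replicate, 4.32 and 3.80, and 12 of the 16 paralogues have no peak in either list.

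In the base of the regulatory particle 4 of 10 main genes (40.0%, against 49.9% of all genes) had a peak in both replicates. Of the 6 main Rpt ATPase genes 2 had one, Rpt5 and Rpt1. Rpt5 (3R, 23752876 to 23754623) had 3.00 in replicate 1 and 2.91 in replicate 2, with summits 238 and 30 bp outside the gene in peaks that also reached RanBP3. Rpt1 had 2.71 and 2.34 near its higher coordinate, from peaks that also reached CG17985. Rpt2 had 2.36 in replicate 2, from 110 fragments over a background of 46.0, and no peak within 2296 bp in replicate 1. Rpt3, Rpt4 and Rpt6 had no peak within 500 bp in either list, with the nearest peaks 546 to 6472 bp away in replicate 1 and 1218 to 1883 bp away in replicate 2. These last ATPase genes all lie on the X, and on the autosomes 4 of 7 base genes had a peak in both replicates, against 53.9% of autosomal genes.

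The non-ATPase subunits of the base include a scaffold, Rpn2, and the ubiquitin receptors Rpn10, Rpn13 and Rpn1. Rpn2 had 3.26 in replicate 1 and 2.34 in replicate 2, with summits 98 and 128 bp beyond its end. Rpn10 had 2.49 in replicate 1 inside the gene and 2.59 in replicate 2 beyond the other end, and also a peak of 1.98 in replicate 2 that covered nearly the same stretch as that of replicate 1. Rpn1 had a peak of 2.07 in replicate 2 and none in replicate 1. Rpn13 was the reverse, with 1.95 in replicate 1 and none in replicate 2, where the nearest peak lay 663 bp away.

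The lid had a peak in both replicates at 5 of 8 main genes (62.5%, against 49.9% of all genes) and in replicate 2 at 8 of 8, against 70.6% of all genes. Rpn6 (2R, 14750166 to 14752910), a lid scaffold subunit, had 3.68 in replicate 1 and 2.88 in replicate 2, at percentiles 95.7 and 93.3 of the lists. Its window held 2 peaks in each list, all of which also reached ave. The highest peaks of the replicates did not overlap there, although 955 bp of the window was covered in both lists. Rpn11, the subunit that cleaves ubiquitin chains from substrates, had 3.54 and 2.00 from peaks that overlapped by 672 bp and also reached Nepl3. Rpn8, the partner of Rpn11, had 2.70 and 2.44 within its span of 4500 bp, from peaks that did not overlap and also reached Slik. Rpn3 had 2.90 and 2.05, with summits 529 and 686 bp outside the gene in peaks that also reached l(2)37Bb. Rpn5 had 2.58 and 2.31 from peaks that did not overlap and also reached Hpf1. At Rpn8 and Rpn5, 231 and 264 bp of the window was covered in both lists.

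The other lid genes, Rpn7, Rpn9 and Rpn12, had peaks in replicate 2 alone, and these were low. Their fold enrichments were 1.84 at Rpn7, 1.82 at Rpn9 and 1.61 at Rpn12. In replicate 1 the lowest fold enrichment at any member was 1.87, and the lowest in the whole list was 1.49. The backgrounds at these genes in replicate 2 were 38.1, 36.8 and 43.0 fragments, above the genome-wide 27.1. The limit of 1.96 at the genome-wide background of replicate 1 therefore need not apply to them. The Rpn12 value was the lowest of any member, at percentile 0.905 of its list.

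**Figure D3:**
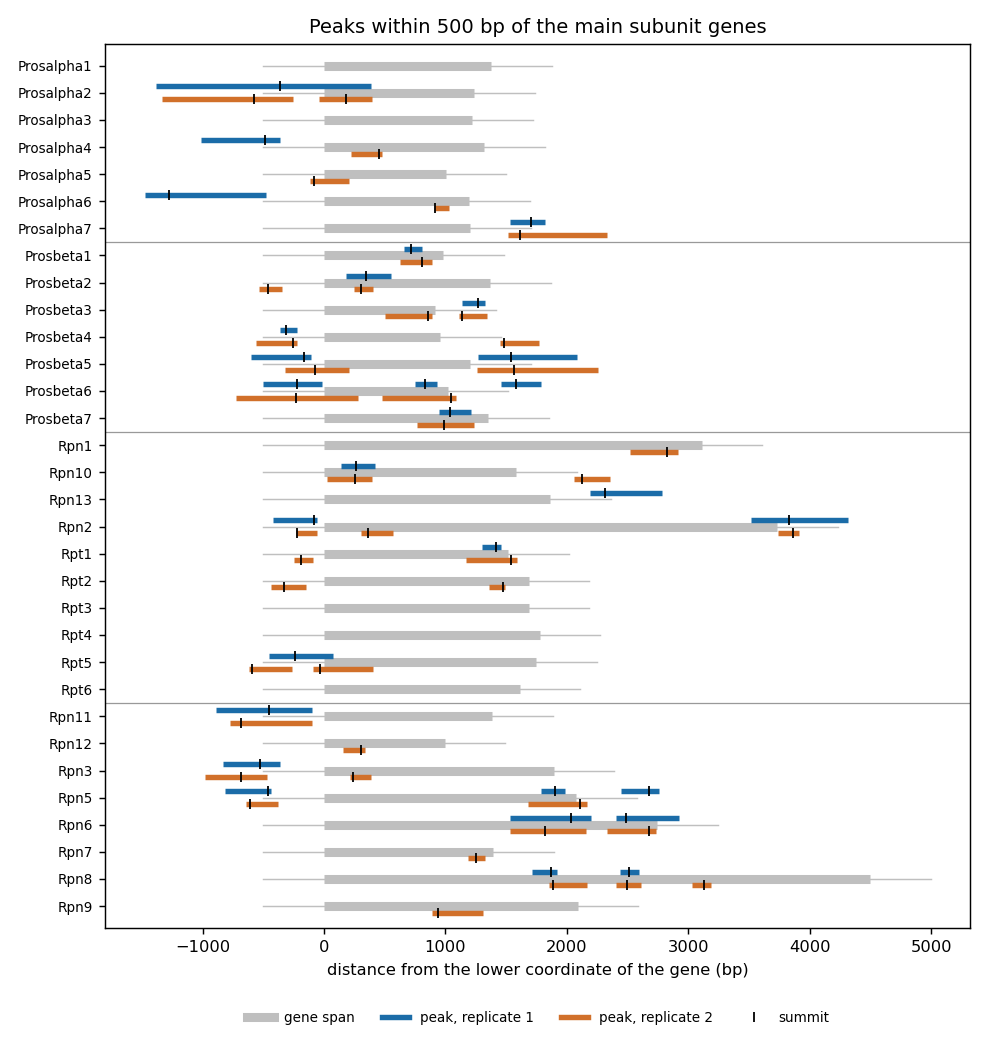
Peaks within 500 bp of the 32 main subunit genes, drawn by distance in bp from the lower coordinate of each gene, since the annotation used gives no strand. Grey bars are gene spans with their flanks as thin lines, blue bars are peaks of replicate 1, orange bars are peaks of replicate 2 and black ticks are summits. Rows run from the alpha ring at the top through the beta ring and the base to the lid. In replicate 1, 7 of 21 highest peaks had their summit inside the gene, and in replicate 2, 12 of 26.

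Most of these peaks lay in sequence shared with a neighbour. In replicate 1 the highest peak of 20 of the 21 main genes with a peak also reached the span or flank of another protein-coding gene, and in replicate 2 that of 20 of 26. These shares were 95.2% and 76.9%, against 59.1% and 57.0% of all genes with a peak. All main genes had a neighbour within 500 bp, and among all genes with a peak and such a neighbour the shares were 66.7% and 65.6%. The summit lay inside the main gene in 7 of 21 cases in replicate 1 and 12 of 26 in replicate 2, whereas for all genes with a peak it lay inside in 63.8% and 63.5%. The main genes are short, with a median of 1390 bp against 2163 bp for all genes. Peaks could not be assigned to the promoter of the subunit gene or of its neighbour, because the annotation gives no strand, transcript or exon.

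The replicates had overlapping peaks at most of the members with a peak in both lists, but their highest peaks overlapped at only 16 of them. Of the 24 genes with a peak in both lists, 21 (87.5%) had overlapping peaks, against 93.8% of all genes with a peak in both, and the exceptions were Prosalpha4, Prosalpha6 and the paralogue Prosalpha6T. The median fold enrichment of the highest peak was 2.62 in replicate 1 over the 25 members with one, against 2.74 over all genes with one. In replicate 2 it was 2.33 over 30 members, against 2.31 over all genes. These peaks stood at a median percentile of 64.7 of the list in replicate 1, against 72.3 for the highest peaks of all genes, and of 73.3 in replicate 2, against 72.5. The highest peaks of members thus lay above the middle of both lists, as did those of all genes, and these medians leave out the members without a peak.

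The T- and R-type paralogues were next set against the main genes. The share with a peak in both replicates was lower by 37.5 percentage points in the paralogues (4 of 16 against 20 of 32). All genes had shares of 49.9% for both replicates, 52.6% for replicate 1 and 70.6% for replicate 2. Among all genes as long as the paralogues the share was 37.4% for both replicates. By single lists the difference between paralogues and main genes was -40.6 points in replicate 1 and -56.2 in replicate 2 (SD 11.0, n = 2). It was larger in size than this SD in both lists, which is no test of a difference between sets of genes. The same 4 paralogues had a peak in either list, and the other 12 had none in either. The fold enrichment at these 4 ran from 2.29 to 2.82 in replicate 1 and from 2.22 to 2.93 in replicate 2. Counting only peaks that reached no other gene turned the direction, with 2 of 16 paralogues (12.5%) against 1 of 32 main genes (3.12%), both below the 23.4% of all genes. This rule depends on gene spacing, since all 32 main genes but only 10 of the 16 paralogues had a neighbour within 500 bp. The paralogues it kept, Prosalpha6T and Prosbeta5R2, had no such neighbour.

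Of the 4 paralogues with peaks, Prosbeta5R2 (2L, 17990418 to 17991951) had 2.29 in replicate 1 and 2.93 in replicate 2, from overlapping peaks with summits 452 and 530 bp into its span. No other protein-coding gene lay within 500 bp of Prosbeta5R2. Its parent Prosbeta5 had 2.97 and 2.43, with summits outside its span. Prosalpha6T, also without a neighbour, had 2.34 in replicate 1 before the gene and 2.39 in replicate 2 inside it, from peaks that did not overlap. Its parent Prosalpha6 had 3.83 and 1.71.

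The other paralogues with peaks shared them with a neighbour. Prosbeta2R2 (3R, 5217751 to 5219528) had 2.82 in replicate 1 and 2.51 in replicate 2 from peaks beyond its end that also reached CG1116, while its parent Prosbeta2 had 2.59 and 2.24 inside the gene. Rpt3R (3R, 9754735 to 9756510) had 2.47 and 2.22 from peaks outside its span that also reached Tti1. Its parent Rpt3, on the X, had no peak in either list.

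Pair by pair, 3 of the 16 paralogues had a peak in both replicates together with their parent, and in 6 pairs the parent alone had one. In 1 pair, Rpt3R and Rpt3, the paralogue alone had one, and in the other 6 neither did. Several pairs share a parent, since the 16 paralogues belong to 12 main genes. These 12 main genes had a peak in both replicates in 5 cases (41.7%), and the 20 main genes without a T- or R-type copy in 15 (75.0%), against 49.9% of all genes. Of the 12, 4 lie on the X. On the autosomes the counts were 4 of 8 (50.0%) and 15 of 20 (75.0%), against 53.9% of autosomal genes, near the share of the 8.

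**Figure D4:**
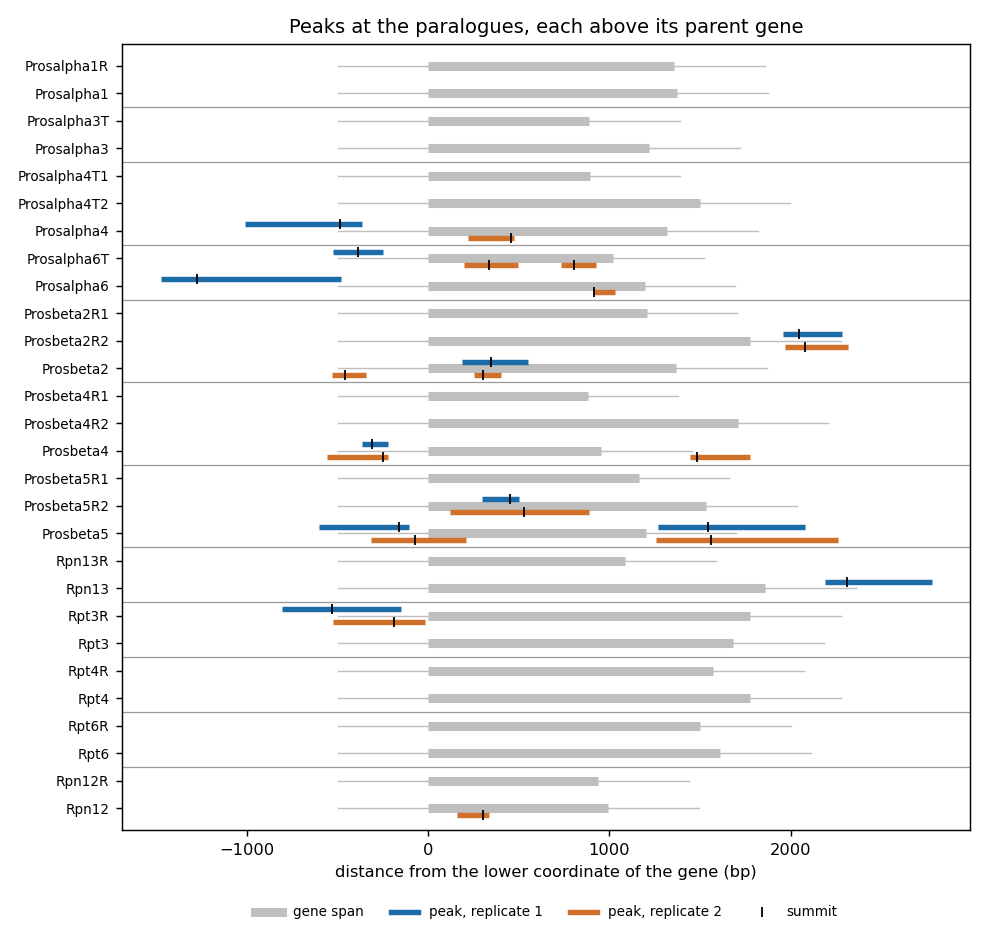
Peaks within 500 bp of the 16 paralogues and, under each group of copies, of their parent gene, by distance in bp from the lower coordinate of the gene. Grey bars are gene spans with flanks as thin lines, blue bars are peaks of replicate 1, orange bars are peaks of replicate 2 and black ticks are summits. Prosbeta5R2 and Prosalpha6T carry peaks inside the span in replicate 2, and 12 paralogues carry none.

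The same peaks can be described by their distance, which is no separate evidence from the counts. The median distance from the gene span to the nearest peak was 3845.5 bp for the 16 paralogues in replicate 1, against 279.5 bp for the main genes, and 1693.5 against 0 bp in replicate 2. Over all genes the medians were 357 bp and 0 bp. In replicate 2 some paralogues without a peak within 500 bp lay closer than some main genes without one. Rpn12R lay 691 bp, Prosalpha4T2 863 bp and Rpt6R 1267 bp from a peak, nearer than the main genes Rpt4 at 1488 bp and Rpt3 at 1883 bp. The farthest in replicate 1 were the nearby copies Prosbeta4R1 and Prosbeta4R2, 67455 and 69803 bp from a peak, which both have the odorant receptor gene Or23a within 500 bp. In replicate 2 their distances were 5612 and 7960 bp. Prosbeta2R1 lay 22456 bp from a peak in replicate 1 and 22367 bp in replicate 2. Rpn13R, on the X, lay 41689 and 51709 bp away.

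Prosalpha1 and its copy Prosalpha1R lie next to each other on 2R, with 1735 bp between them, and neither had a peak. How reads matching more than 1 place in the genome were handled is not given in the sources used here, and for near copies of a gene this can lower the coverage. Its part in the missing peaks was not tested.

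The distance of peaks was followed by widening the flank, with flanks of 2000 and 5000 bp chosen after seeing the data. Without a flank, 1 of 16 paralogues, 5 of 14 core genes and 7 of 18 regulatory genes had a peak in both replicates, against 39.7% of all genes. With 1000 bp the counts were 4, 13 and 12, against 56.4% of all genes. With 2000 bp they were 4, 14 and 15, against 65.1%. With 5000 bp they were 9, 14 and 17, against 77.7%. Between 500 and 2000 bp no further paralogue gained a peak in both replicates, while the core genes without one, Prosalpha1, Prosalpha3 and Prosalpha5, all did.

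**Figure D5:**
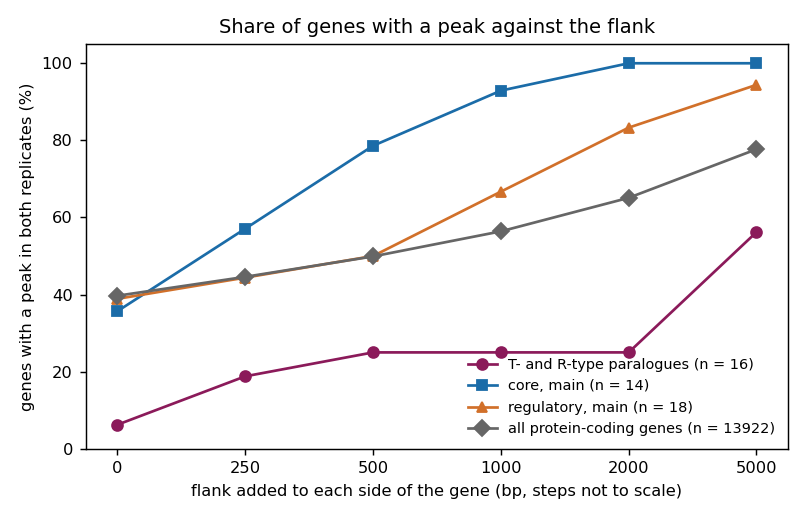
Percentage of genes with a peak in both replicates (vertical axis) against the flank added to each side of the gene in bp (horizontal axis, steps not to scale), for the 16 paralogues, the 14 core and 18 regulatory main genes and all protein-coding genes. The paralogues stay at 25.0% from 500 to 2000 bp, while the core genes reach 100% at 2000 bp.

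Other genes of the pathway were counted from a list of 20. Of these 15 (75.0%) had a peak in both replicates, against 49.9% of all genes. Among the regulators, cnc, the activator related to mammalian Nrf proteins that drives proteasome genes, had 4.60 in replicate 1 and 3.85 in replicate 2. Its partner maf-S had 2.94 and 2.41, and its inhibitor Keap1 had 2.17 and 2.30. Of the deubiquitinases that bind the regulatory particle, Uch-L5 had 2.88 and 3.08 and Usp14 had 2.57 and 2.46. Sem1, the smallest lid subunit, which the choice by symbol leaves out, had 2.22 and 2.74.

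The other listed pathway genes with a peak in both replicates act in the supply of ubiquitin, the delivery of substrates or as ubiquitin ligase parts. The ubiquitin-activating enzyme gene Uba1 had 2.46 in replicate 1 and 2.70 in replicate 2, the polyubiquitin gene Ubi-p63E had 2.60 and 2.52, and the ubiquitin fusion gene RpL40 had 4.05 and 2.75. The unfoldase gene TER94 had 2.97 and 2.20, and its cofactors Npl4 and Ufd1 had 2.65 and 2.31, and 2.00 and 2.23. The shuttle genes rngo and Ubqn, both on the X, had 2.77 and 2.63, and 2.84 and 2.38. The F-box gene ntc, known from spermatid maturation, had 3.13 and 2.03 from peaks that also reached CG32264. The highest peaks of Uch-L5, Usp14, maf-S, Sem1, Ufd1 and Ubqn likewise reached another protein-coding gene in both lists. Those of Npl4, Ubi-p63E and rngo did so in a single list.

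The pathway genes without a peak in both replicates were of several kinds. The assembly chaperone gene Pomp had 2.60 in replicate 2 and no peak in replicate 1, as had the ubiquitin fusion gene RpS27A with 2.46. The activator gene REG, the regulator gene PI31 and the shuttle gene Rad23 had no peak in either list.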

How the data were processed

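H3K27ac CUT&RUN was measured in 2 replicates of male pupal wings, which form 1 group. Per the submitters' processing notes, reads were aligned with Bowtie2 to dm6 and peaks were called with MACS2; the sources used here give no versions, settings, duplicate handling or control library. The deposited fold is a ratio of summit signal to the caller's background, and the caller also gave the deposited -log10 p and -log10 q of each peak. The deposited score holds the same q in rounded form and was not used further. All were read only within their own list, since list 1 starts at a -log10 q of 2.01 and list 2 at 2.04.

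Genes came from a RefSeq table of Release 6, the assembly also called dm6, which gives no strand or exons. Peak starts were turned into 1-based positions. Overlaps were counted in Python 3.11.15 with pandas 2.3.3 and gave the same gene counts as bedtools 2.31.1. Fragment numbers were solved from fold and -log10 p with scipy 1.17.1 within 0.001 units of log10 p, which succeeded for 99.99% and 100% of peaks. Both steps were tested on simulated data. The simulated backgrounds spanned the genome-wide background of replicate 1 but lay below that of replicate 2, so the solving was not tested at the backgrounds of replicate 2. A percentile ranks the fold of a peak within its list. Fragments carry no molecular identifiers and need not be independent molecules. No test was run, because genes are not replicates and there is no second group.

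The members and lists were chosen with earlier results of these data known. Named with values were the 8 main genes with the highest mean percentile, paralogues with a peak and their parents, main genes with a peak in 1 replicate, and pathway genes with a peak in both. Further members are named to complete each ring. Of the 20 pathway genes, 1 (Ufd1) was matched through a synonym. The planned promoter motif search and protein alignment were not run, since no sequences were used here. Alternatives were flanks of 0, 250 and 1000 bp, a -log10 q of at least 5, equal numbers of top peaks, summits, overlapping peaks, either replicate, gene ends, peaks reaching no other gene and leaving out each replicate. Autosomal genes alone and flanks of 2000 and 5000 bp were added after seeing the data.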

Additional observations from a re-analysis of the deposited data

How the results depend on the processing

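The values below follow the order all members (24), core particle with its paralogues (14), regulatory particle with its paralogues (10), paralogues (4) and main genes (20), and each count is of genes with a peak in both replicates. Over 7 results and 16 alternatives, 65 values were classed as the same, 43 as moved and 4 as reversed. A count was classed by its ratio to the reported one with a wide limit. Thus 29 main genes with a flank of 2000 bp were classed as the same as 20. A difference was classed by its distance from the reported one against the SD of its single-list values, and as reversed when its sign changed. The counts were 13, 6, 7, 1 and 12 when the flank was left out. At a minimum -log10 q of 5 they were 15, 6, 9, 2 and 13, and with a reciprocal overlap of 50% they were 13, 6, 7, 2 and 11. With equal numbers of top peaks all 5 counts moved, to 9, 4, 5, 1 and 8, and with peaks reaching no other gene to 3, 3, 0, 2 and 1. The regulatory count was 16 with a peak in either replicate and 16 with a flank of 2000 bp. With 5000 bp the counts were 40 for all members, 20 for the regulatory particle, 9 for the paralogues and 31 for the main genes. All genes moved too, to 39.7% without a flank, 39.1% with the stricter q, 36.6% with reciprocal overlap, 26.8% with top peaks, 23.4% with peaks reaching no other gene and 77.7% with 5000 bp.

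The difference between core and regulatory main genes, 28.6 percentage points, reversed to -3.17 without a flank, -8.73 at a minimum -log10 q of 5 and -6.35 with equal numbers of top peaks. It was 12.7 with a flank of 250 bp, 14.3 with overlapping peaks, 2.38 with reciprocal overlap, 2.38 with either replicate, 7.14 with peaks reaching no other gene, 16.9 on autosomes, 16.7 with 2000 bp and 5.56 with 5000 bp. Leaving out 1 replicate gave 7.94 to 23.0. The difference between paralogues and main genes, -37.5, reversed to 9.38 with peaks reaching no other gene. It was -53.1 with 1000 bp, -65.6 with 2000 bp, -18.8 with top peaks, -21.9 with reciprocal overlap and -59.4 with either replicate, and leaving out 1 replicate gave -56.2 to -40.6. Leaving out 1 replicate gave 25 to 30 for all members, 14 to 15 for the core, 11 to 15 for the regulatory particle, 4 for the paralogues and 21 to 26 for the main genes. The cause of the reversals was not tested. No paired analysis was possible because there is 1 group.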
